A study of Mus musculus with 64 samples.

Results

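The regions described here are stretches of mouse autosomal chromatin that carried both Polycomb proteins assayed, Suz12 and Ring1B, in B cells. A base was kept when peaks of Suz12 covered it in at least 5 of 9 libraries and peaks of Ring1B covered it in at least 5 of 9 libraries, all times together, and kept bases within 500 bp of each other were merged. This gave 4708 shared regions with 8.62 Mb in all, out of 164119 autosomal regions that had a peak of either protein in at least 1 of the 18 libraries. Because the peaks of Suz12 and Ring1B chose the regions, their own values at these regions are given as a description and were not tested.

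The cells were CD23+ B cells from the spleen of female F1 hybrids, born to C57BL/6 mothers heterozygous for an Xist deletion and Mus musculus castaneus (Cast) fathers. The assay was CUT&RUN, which uses an antibody to bring a nuclease to a chromatin protein and sequences the DNA it frees. Cells were either unstimulated (0 h) or after 12 or 24 h in 1 µM CpG, an oligonucleotide that the receptor TLR9 senses. Peak lists named for the Cast allele were used for H3K27me3 (3, 3 and 4 libraries at 0, 12 and 24 h), H2AK119Ub (4, 3 and 5), H3K27ac (3, 3 and 3), H3K9me3 (4, 4 and 4), Suz12 (3, 3 and 3) and Ring1B (3, 3 and 3), which makes 61 lists. No age of the mice is stated in those sources, the labels call the replicates biological without naming animals, and the samples labelled IgG were not analysed here.

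Polycomb group proteins keep developmental genes silent in cells that do not use them. Suz12 is a core subunit of Polycomb repressive complex 2, which methylates histone H3 to give H3K27me3, and Ring1B is the ubiquitin ligase of Polycomb repressive complex 1, which places H2AK119Ub on histone H2A. H3K27ac sits on the same lysine as H3K27me3, excludes it on the same histone tail and marks active promoters and enhancers, while H3K9me3 marks heterochromatin such as silenced repeats.

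Gene starts inside shared regions had promoters rich in CpG dinucleotides by their median count, both with H3K27me3 and with H3K27ac. The sequences below show this for both kinds except at Tal1 and, less so, at Eed. Tal1 had 11 CpG dinucleotides and a GC content of 50.7%, with its count below the lower quartile of the H3K27me3 promoters, 14. Eed had 17 and 54.7%, with its count below the lower quartile of promoters with H3K27ac without H2AK119Ub or H3K27me3, 19. The 8 promoters in regions with H3K9me3 alone were not rich, with a median of 0.5 CpG dinucleotides. The printed sequences run 5′ to 3′ in the direction of transcription, from 250 bases before to 50 bases after the start. They are taken from RefSeq on GRCm38.p6 (the assembly of mm10) and have every CpG dinucleotide in capitals. The first 4 starts lay in shared regions with H3K27me3 and no H3K27ac at 24 h. Hoxa13 and Gata3 encode transcription factors of limb and of T cell development, Tal1 one of blood stem cells and red cells, and Cbx8 a subunit of Polycomb repressive complex 1. The Hoxa13 promoter is chr6:52260831-52261130 (minus strand, 45 CpG dinucleotides), that of Gata3 chr2:9878551-9878850 (minus strand, 22 CpG dinucleotides), that of Tal1 chr4:115056176-115056475 (plus strand, 11 CpG dinucleotides) and that of Cbx8 chr11:119040864-119041163 (minus strand, 24 CpG dinucleotides).
Hoxa13: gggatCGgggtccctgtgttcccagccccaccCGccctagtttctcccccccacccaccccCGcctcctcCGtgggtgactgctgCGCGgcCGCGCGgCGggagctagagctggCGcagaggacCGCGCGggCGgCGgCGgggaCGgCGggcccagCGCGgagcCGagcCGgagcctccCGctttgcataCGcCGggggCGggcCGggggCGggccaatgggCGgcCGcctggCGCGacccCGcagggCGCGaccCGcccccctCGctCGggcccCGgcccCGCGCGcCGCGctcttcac
Gata3: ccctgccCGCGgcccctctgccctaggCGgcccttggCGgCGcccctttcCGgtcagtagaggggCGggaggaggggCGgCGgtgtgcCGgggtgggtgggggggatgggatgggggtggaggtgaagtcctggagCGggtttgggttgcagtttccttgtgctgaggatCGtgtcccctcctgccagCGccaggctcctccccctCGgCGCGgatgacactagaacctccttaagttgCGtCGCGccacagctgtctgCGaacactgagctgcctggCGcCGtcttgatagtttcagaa
Tal1: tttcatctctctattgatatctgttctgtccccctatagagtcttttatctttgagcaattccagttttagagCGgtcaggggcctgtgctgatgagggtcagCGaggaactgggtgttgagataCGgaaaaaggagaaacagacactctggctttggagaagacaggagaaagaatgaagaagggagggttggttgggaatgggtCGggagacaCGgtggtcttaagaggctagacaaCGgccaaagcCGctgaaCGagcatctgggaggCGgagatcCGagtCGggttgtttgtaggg
Cbx8: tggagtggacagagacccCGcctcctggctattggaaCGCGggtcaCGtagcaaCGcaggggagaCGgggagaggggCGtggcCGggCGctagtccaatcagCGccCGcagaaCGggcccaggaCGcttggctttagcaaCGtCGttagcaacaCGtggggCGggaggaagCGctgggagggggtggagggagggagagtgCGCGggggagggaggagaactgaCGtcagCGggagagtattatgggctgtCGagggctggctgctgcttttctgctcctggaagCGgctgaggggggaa

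The next 4 starts lay in shared regions with H3K27ac and no H3K27me3 at 24 h. Nfkb2 encodes an NF-kB subunit, Pcna the sliding clamp of DNA replication, Eed a core subunit of Polycomb repressive complex 2, and Rps19 a protein of the small ribosomal subunit. The Nfkb2 promoter is chr19:46304487-46304786 (plus strand, 25 CpG dinucleotides), that of Pcna chr2:132253131-132253430 (minus strand, 26 CpG dinucleotides), that of Eed chr7:89980927-89981226 (minus strand, 17 CpG dinucleotides) and that of Rps19 chr7:24884426-24884725 (plus strand, 27 CpG dinucleotides).
Nfkb2: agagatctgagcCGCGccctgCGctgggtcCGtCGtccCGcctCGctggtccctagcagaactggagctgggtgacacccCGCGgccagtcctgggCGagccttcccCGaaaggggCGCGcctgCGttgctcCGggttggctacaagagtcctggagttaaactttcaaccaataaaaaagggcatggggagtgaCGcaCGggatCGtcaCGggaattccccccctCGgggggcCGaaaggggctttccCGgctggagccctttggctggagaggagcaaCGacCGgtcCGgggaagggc
Pcna: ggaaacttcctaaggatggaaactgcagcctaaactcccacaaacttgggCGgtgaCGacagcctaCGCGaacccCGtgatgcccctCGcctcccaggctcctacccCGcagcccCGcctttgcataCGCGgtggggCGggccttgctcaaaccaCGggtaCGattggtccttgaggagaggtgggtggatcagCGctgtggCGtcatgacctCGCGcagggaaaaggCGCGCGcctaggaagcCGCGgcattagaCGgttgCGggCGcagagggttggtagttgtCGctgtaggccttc
Eed: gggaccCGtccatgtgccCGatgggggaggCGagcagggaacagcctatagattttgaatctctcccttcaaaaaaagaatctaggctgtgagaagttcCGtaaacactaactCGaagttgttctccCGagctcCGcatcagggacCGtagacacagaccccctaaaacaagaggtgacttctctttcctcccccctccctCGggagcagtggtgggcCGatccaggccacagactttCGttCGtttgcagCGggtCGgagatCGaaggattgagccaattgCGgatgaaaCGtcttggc
Rps19: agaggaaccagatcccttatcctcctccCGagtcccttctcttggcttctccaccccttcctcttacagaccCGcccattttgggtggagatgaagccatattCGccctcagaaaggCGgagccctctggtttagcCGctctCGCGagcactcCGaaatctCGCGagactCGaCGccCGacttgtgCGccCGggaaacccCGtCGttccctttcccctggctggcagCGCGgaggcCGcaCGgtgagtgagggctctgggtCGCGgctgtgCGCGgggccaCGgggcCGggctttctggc

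For contrast, Cd79a, which encodes a signalling chain of the B cell receptor, had no shared region at its start. Its promoter is chr7:24897247-24897546 (plus strand, 8 CpG dinucleotides).
Cd79a: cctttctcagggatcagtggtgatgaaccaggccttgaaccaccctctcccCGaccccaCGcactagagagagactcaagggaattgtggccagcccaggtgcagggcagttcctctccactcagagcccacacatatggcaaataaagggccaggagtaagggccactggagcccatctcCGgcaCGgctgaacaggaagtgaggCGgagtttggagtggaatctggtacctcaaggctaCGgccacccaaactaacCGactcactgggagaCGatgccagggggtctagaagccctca

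Over all 2796 promoters of 2444 genes whose start lay inside a shared region, the median was 23 CpG dinucleotides per 300 bases and a GC content of 62.3%. For the 28600 promoters with the start outside shared regions the medians were 6 and 52.0%. Within the shared regions the median count was 21 where H3K27me3 without H3K27ac was present at 24 h (595 promoters) and 24 where H3K27ac was present without H2AK119Ub or H3K27me3 (1049 promoters), so the counts hardly separated silent from acetylated promoters. Short letters did differ in frequency: CCGGAAGT on either strand, a match to the ETS family motif, was in 1.85% of the H3K27me3 promoters, in 11.2% of the promoters with H3K27ac alone and in 3.95% of all 31396 promoters. It did not separate acetylated promoters from the rest. With H3K27ac it was in 6.06% where H2AK119Ub was present without H3K27me3, and in 10.96% where H3K27me3 was present. Without H3K27ac it was in 7.097% with H2AK119Ub alone and in 12.02% with none of the 4 marks. The CCAAT box (CCAAT on either strand) was in 38.7%, 44.2% and 37.3% of the H3K27me3 promoters, those with H3K27ac alone and all promoters. In the same order the TATA box (TATAAA on either strand) was in 8.24%, 6.20% and 13.6%. CCGGAAGT itself contains a CpG dinucleotide, and a match in these windows describes the letters only.

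As a check of the labelled cell type, H3K27ac peaks lay at 10 of 10 B cell marker genes in at least 5 of the 9 libraries, at 2 of 8 T cell markers (Cd3d and Lck, in 8 libraries each), at 0 of 8 myeloid markers and at 0 of 6 erythroid and stromal markers. Sequencing depth is unknown. The lists differed in length, and the mean covered share of the autosomes was higher at 12 and 24 h than at 0 h. It was between 1.21 and 3.84% for H3K27me3 at 0 h, between 3.29 and 5.35% at 12 h, and between 8.18 and 12.6% at 24 h, and 1.13 to 2.38%, 4.07 to 6.54% and 2.40 to 8.65% for H2AK119Ub. For H3K27ac it was 0.663 to 2.10%, 2.39 to 5.01% and 2.10 to 5.11%, the lowest at 0 h being replicate 1 with 1448 autosomal peaks against 4741 and 5269 in the other replicates at 0 h. Every increase with time below moves together with this difference in length. Its part in the results was not tested beyond values that are rescaled or from lists of equal length. Those are given for the covered shares, the class sizes and the tested counts, and not for regions grouped by their marks at 0 h.

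The shared regions were short. Their median length was 1458 bp (quartiles 1020 and 1975 bp), 194 were over 5 kb, 52 over 10 kb and 128 under 200 bp, and the longest, 29208 bp across Hoxa11 and Hoxa13, lay at chr6:52246445-52275652. Among the 10 longest regions with all 18 libraries were those at Hoxa13, Hoxa7, Barhl2 and Sox21, transcription factors of development, and 2 at Cdkn2a. At the best base of each region, 485 regions had all 9 libraries of both proteins, and 1583 regions had exactly 5 libraries of the protein with fewer. A stricter rule of 9 of 9 left 561 regions (counted by bases), and a looser one of 4 of 9 gave 6787. One region just inside the limit lay in Pbx3, a homeobox gene, with 8 Suz12 and 5 Ring1B libraries, and one just outside lay in Lhx5, a LIM homeobox gene, with 9 and 4.

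By description, Suz12 peaks covered 81.3, 87.8 and 93.6% of the shared bases in the libraries at 0 h, 55.7, 70.0 and 71.3% at 12 h and 66.3, 77.0 and 81.9% at 24 h. Ring1B peaks covered 74.5, 80.0 and 84.4% at 0 h, 53.4, 79.2 and 83.2% at 12 h and 86.9, 87.1 and 89.7% at 24 h. The low Ring1B value at 12 h belongs to replicate 1, which had 17885 autosomal peaks, the fewest of the 18 lists, and leaving it out with a limit of 5 of 8 gave 4560 regions that touched 96.3% of the 4708. Both proteins' lists were cut at a set share of blocks, so the covered percent does not measure the amount of either protein. Replicate lists of these proteins overlapped little over the genome, with a median overlap of 0.117 for Suz12 and 0.122 for Ring1B (shared bases over combined bases, at most 1).

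Gene starts were frequent among the shared regions. Of 4708 shared regions, 2392 (50.8%) lay within 1 kb of an annotated start, against 14.8% of the 44815 other regions, which touch no shared region but had peaks of Suz12 or Ring1B in 3 or more of the 18 libraries. Outside genes by more than 2 kb lay 965 shared regions (20.5%), against 31.8% of the other regions. A shared region at the start was found for 2481 of 20665 autosomal protein-coding genes (12.0%), and this share is the background for the gene groups that follow.

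Developmental regulators silenced by Polycomb in most tissues had a shared region at the start in 26 of 80 genes (32.5%), among them Hoxa13, Hoxa9, Hoxd13, Pax6, Nkx2-5 and Olig2, and neighbouring Hox genes share regions. Of the 26, 25 had H3K27me3 without H3K27ac at 24 h, the exception being Wnt10b, which encodes a Wnt ligand and carried both marks. Of 7 cyclin-dependent kinase inhibitors 5 had one: Cdkn2a and Cdkn2b, senescence genes, share a 23541 bp region at chr4:89288637-89312177 that had its 2 kb window fully covered by H3K27me3 and H2AK119Ub in every library at every time with no H3K27ac, whereas Cdkn1a, Cdkn2c and Cdkn2d carried H3K27ac at 24 h. Of 31 Polycomb subunit genes on the autosomes 7 had one, and they fell on both sides: Cbx7, Cbx8, Pcgf2 and Pcgf5 carried H3K27me3, while Eed, Ezh2 and Rbbp4 carried H3K27ac.

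Genes of growth and division with a shared region at the start mostly carried H3K27ac, as did 1499 of all 2481 protein-coding genes with one. A shared region lay at the start of 10 of 24 cell cycle and replication genes (41.7%), of which 8 carried H3K27ac without H3K27me3 at 24 h, such as Pcna and the helicase subunits Mcm5 and Mcm7, Rrm2 carried both marks, and Plk1, a mitotic kinase, carried H2AK119Ub alone. The same held for 8 of 29 ribosome genes and 7 of 23 housekeeping genes, of which 6 and 6 carried H3K27ac without H3K27me3. Of 33 genes of the TLR9 and NF-kB response 6 had one (18.2%), 5 of them acetylated without H3K27me3. The sixth, Egr2, had 2 regions at its start that carried H3K27me3 at 24 h. The region at chr10:67537183-67538057 also carried H3K27ac, with means of 0, 66.7 and 66.7% at 0, 12 and 24 h. None of 20 B cell identity genes and none of 12 plasma cell genes had a shared region at the start, although Pax5, Bach2, Cd74 and Cd79a had one or more within the gene or 2 kb of it, all acetylated at 24 h, and Prdm1, the driver of plasma cell fate, had one with H3K27me3. Among genes of other lineages there were Gata3 of 18 T cell genes (5.56%), Cebpa and Lyz2 of 16 myeloid genes (12.5%), and Tal1, Klf1 and Pdgfra of 12 erythroid and stromal genes (25%), all without H3K27ac at 24 h. Imprinted genes gave 4 of 25, with H3K27me3 at Mest and Plagl1 and H3K27ac at Inpp5f and Zrsr1.

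At 24 h some shared regions carried H3K27me3 and others H3K27ac, and few carried both. A mark was counted as present where its peaks covered, on average over the libraries, at least 50% of a 2 kb window at the region's centre, a limit set after the data were seen. H3K27me3 without H3K27ac was present at 1356 shared regions (28.8%), against 27.5% of the other regions, and H2AK119Ub accompanied it at 1239 of these (91.4%). H3K27ac without H3K27me3 was present at 941 regions with H2AK119Ub (20.0%), against 5.33% of the other regions, and at 1148 regions without H2AK119Ub (24.4%), against 11.5%. H3K27me3 and H3K27ac were both present at 212 shared regions (4.50%), against 149 of the other regions (0.332%), H2AK119Ub alone at 246 (5.23%), against 7.43%, and H3K9me3 alone at 378 (8.03%), against 4.72%. None of the 4 marks was present at 427 shared regions (9.07%), against 43.2% of the other regions. The limit and the length of the lists move these sizes. Acetylated regions with H2AK119Ub numbered 516 with a limit of 75%, 414 with the stronger peaks of each list and 31 with lists of equal length, and regions with H3K27me3 and H3K27ac numbered between 14 and 478 over the settings tried. Acetylated regions without H2AK119Ub numbered 531 and those with none of the marks 2433 with lists of equal length, so on those lists H3K27ac was present at fewer shared regions than H3K27me3, the reverse of the order above. Peaks are called on a population of cells, so both marks at one region may lie on different cells or on neighbouring nucleosomes.

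**Figure D1:**
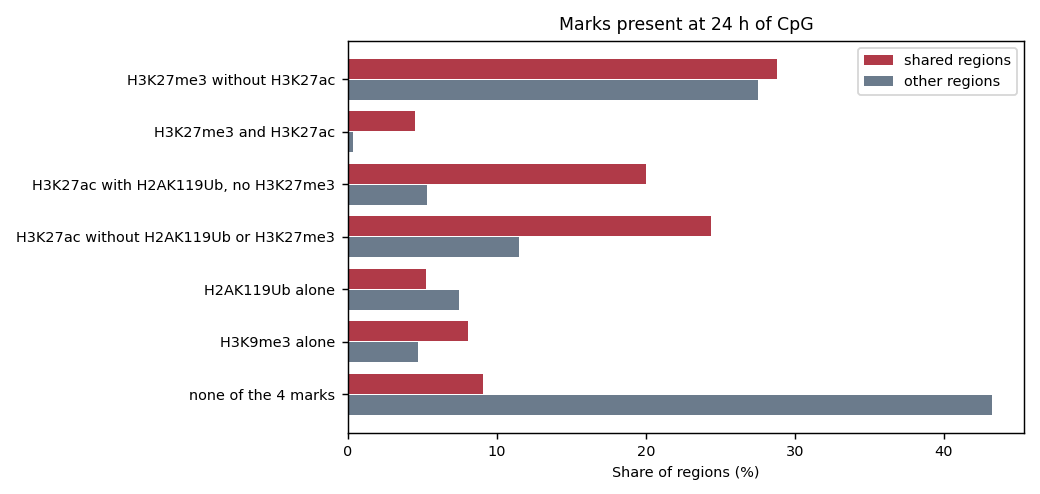
Share of regions (%, x axis) with each combination of marks at 24 h of CpG, for the 4708 shared regions and the 44815 other regions. Acetylated classes with and without H2AK119Ub make up 20.0 and 24.4% of the shared regions against 5.33 and 11.5% of the others, while the H3K27me3 class is 28.8 against 27.5%; with lists of equal length the shared regions with H3K27ac and H2AK119Ub number 31 in place of 941.

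The classes differed in place. Of the regions with H3K27ac alone 71.5% lay at a gene start, and of those with H3K27me3 without H3K27ac 44.2% did. The H3K9me3 class was unlike the rest: 4.23% lay at a gene start and 71.7% outside genes, yet 62 of its 378 regions had all 18 Suz12 and Ring1B libraries. One of these was the second longest shared region, 28029 bp at chr10:33723098-33751126. H3K9me3 covered its central 2 kb window fully in all 12 libraries and the other 3 histone marks in none. Another lay beside Zfp981, a zinc finger gene, at chr4:146475548-146500373, and H3K9me3 fully covered its 2 kb window in all 12 libraries. Mean coverage of that window was also 48.5% by H2AK119Ub at 0 h and 24.2% by H3K27me3 at 24 h. The rest of these long regions lies outside the windows measured. H3K27me3 was present at 42.9% of the regions with 9 of 9 libraries of both proteins and at 30.8% of those just inside the limit.

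**Figure D2:**
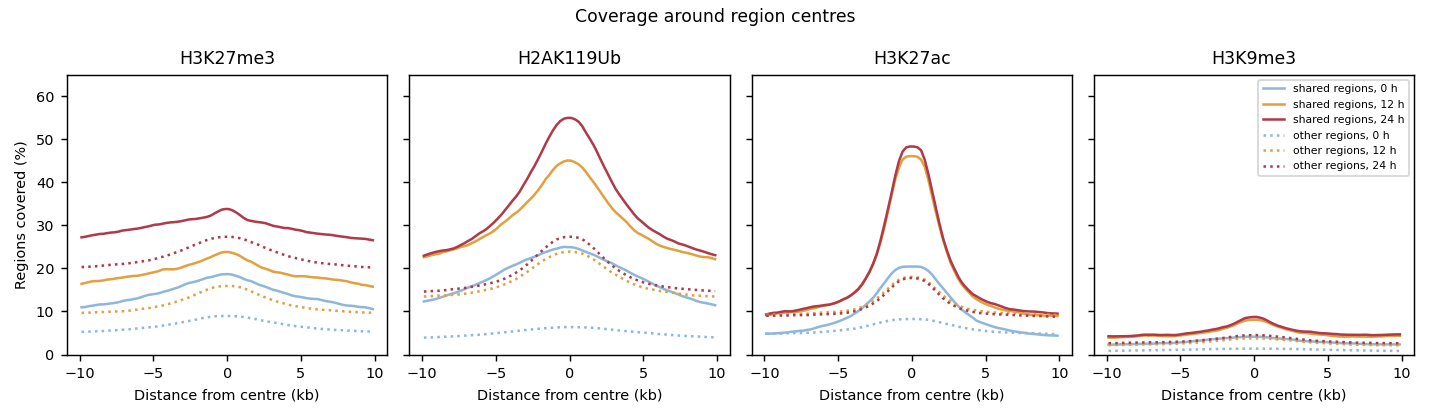
Mean share of regions covered by peaks (%, y axis) against distance from the region's centre (kb, x axis) for 4 marks, at 0, 12 and 24 h, in shared regions (solid) and other regions (dotted). At 24 h H3K27ac covers 48.3% of shared regions at the centre and 9.41% at 10 kb, H3K27me3 33.8 and 26.9%.

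Around the centres H3K27ac was narrow and H3K27me3 broad. At 24 h H3K27ac covered 48.3% of the shared regions at the centre and 9.41% at 10 kb, H2AK119Ub 54.9 and 23.0%, and H3K27me3 33.8 and 26.9%. The same values for the other regions were 17.8 and 8.88% for H3K27ac, 27.3 and 14.7% for H2AK119Ub, and 27.3 and 20.3% for H3K27me3.

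Coverage of the shared bases was higher at 12 and 24 h than at 0 h for all 4 histone marks, and for H3K27me3, H2AK119Ub and H3K9me3 the ratio to the autosomes was lower. The covered share cannot exceed the whole, so the highest possible ratio is lower where a list covers more of the autosomes. H3K27me3 peaks covered 20.0, 26.0 and 38.3% of the shared bases in the libraries at 0 h, 33.2, 35.6 and 36.2% at 12 h and 43.4, 43.5, 44.7 and 47.8% at 24 h, so every library at 24 h lay above every earlier one. As a ratio to that list's coverage over all autosomes, this was 15.6 ± 5.16 at 0 h (SD, n = 3), 8.49 ± 2.09 at 12 h (n = 3) and 4.75 ± 0.674 at 24 h (n = 4). For H2AK119Ub the covered share was 36.5 ± 4.99% at 0 h (n = 4), 53.3 ± 3.54% at 12 h (n = 3) and 60.8 ± 9.94% at 24 h (n = 5), and the ratio was 24.1 ± 4.66, 10.5 ± 1.79 and 12.7 ± 4.08. For H3K27ac the covered share was 17.0 ± 8.75%, 37.9 ± 9.81% and 39.4 ± 4.72% (n = 3 each), and the ratio was 10.7 ± 0.210, 11.3 ± 1.38 and 12.8 ± 4.88, with the 3 times overlapping. The H3K9me3 ratio was 3.04 ± 2.02, 1.31 ± 0.105 and 1.15 ± 0.0738 (n = 4 each).

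**Figure D3:**
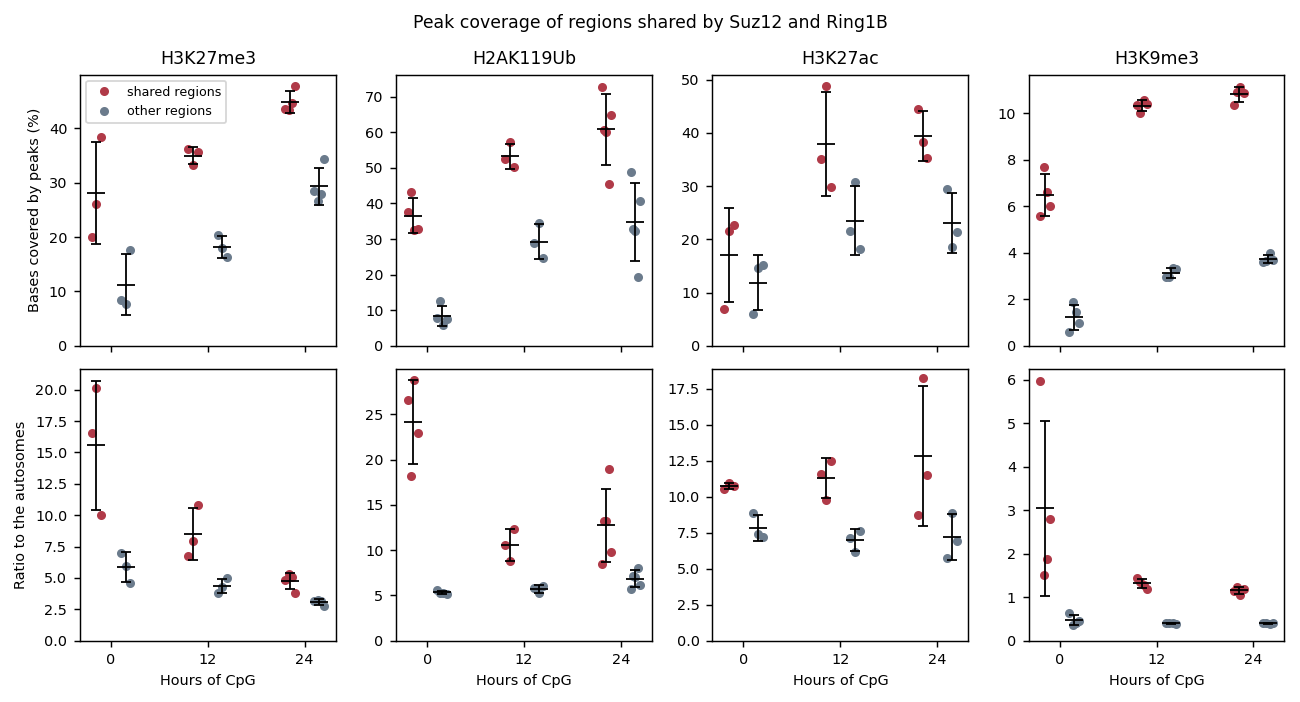
Percent of bases covered by peaks (upper panels, y axis) and its ratio to that list's coverage over all autosomes (lower panels) against hours of CpG, for 4 marks. Points are libraries of shared regions (red, left) and other regions (grey, right), with mean and SD; the mean H3K27me3 ratio of the shared regions is 15.6, 8.49 and 4.75 at 0, 12 and 24 h.

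To follow the marks without choosing regions by their later state, the shared regions were grouped by what they carried at 0 h. The values by group are not rescaled, so their increases move together with the longer lists at 12 and 24 h. With lists of equal length the median difference between 24 and 0 h over all shared regions tested was 22.0 points for H3K27me3. It was 0 for H2AK119Ub and 0 for H3K27ac. The 869 regions with H3K27me3 at 0 h kept it: 864 still had it at 24 h, and 842 then had H2AK119Ub. Their window coverage by H2AK119Ub was 70.8 to 83.6% over the libraries at 0 h, 92.3 to 95.3% at 12 h and 84.5 to 98.1% at 24 h. H3K27ac was present at 51 of the 869 at 24 h. In the other regions that had H3K27me3 at 0 h, H2AK119Ub covered 31.3 ± 5.73% at 0 h (SD, n = 4), 72.2 ± 5.98% at 12 h (n = 3) and 68.1 ± 13.1% at 24 h (n = 5).

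Acetylated regions gained H2AK119Ub peaks and little H3K27me3. In the 1119 shared regions with H3K27ac and no H3K27me3 at 0 h, H2AK119Ub covered 3.39, 3.82, 6.56 and 11.1% of the window at 0 h, 22.6, 26.9 and 33.1% at 12 h and 26.1, 45.2, 45.3, 55.3 and 71.6% at 24 h. No library at 12 or 24 h overlapped those at 0 h, and within 24 h the order of the libraries was that of their covered share of the autosomes, 2.40% in the lowest and 8.65% in the highest. H2AK119Ub was present at 544 of the 1119 at 24 h (48.6%), against 32.8% of the 4077 other regions of this kind, and H3K27me3 at 32. H3K27ac stayed, being present at 1100 of them at 24 h.

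Regions with H2AK119Ub and neither H3K27me3 nor H3K27ac at 0 h had H3K27me3, H3K27ac or both at later times. Of 458 such regions 337 had H3K27me3 at 24 h (73.6%), against 69.0% of the other regions of this kind, and 149 had H3K27ac (32.5%), against 11.8%, and these counts overlap. Their H3K27me3 coverage was 2.68, 3.08 and 47.2% at 0 h, the highest being replicate 3, then 29.9, 36.3 and 39.2% at 12 h and 67.4, 68.0, 71.2 and 80.0% at 24 h. Of 2078 shared regions with none of the 4 marks at 0 h, 1000 had H3K27ac at 24 h (48.1%), against 10.4% of the 34796 other regions without a mark, and 333 had H3K27me3 (16.0%), against 22.2%.

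**Figure D4:**
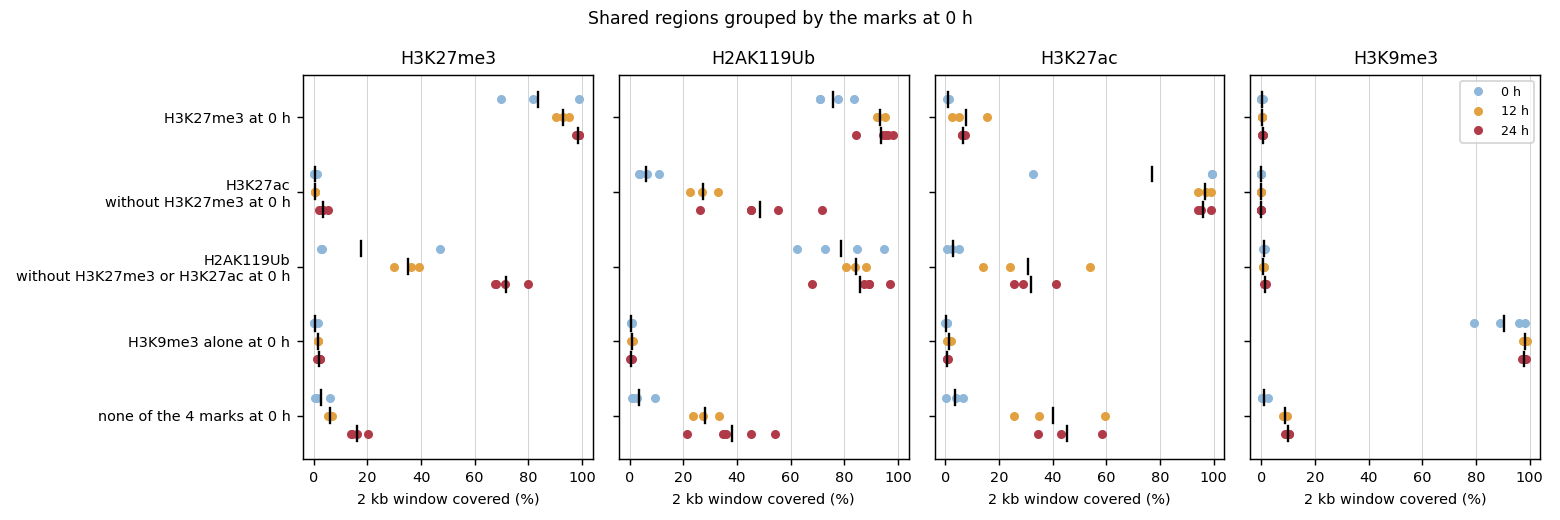
Percent of the 2 kb window covered (x axis) for 4 marks in shared regions grouped by the marks at 0 h (rows), with 1 point per library and a bar at the mean, at 0, 12 and 24 h. In the acetylated group H2AK119Ub lies at 3.39 to 11.1% at 0 h, 22.6 to 33.1% at 12 h and 26.1 to 71.6% at 24 h. Values are not rescaled for the length of the lists.

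Single regions were tested for change over the 3 times with limma's moderated F-test on window coverage, Benjamini-Hochberg adjusted over all regions tested for a mark, with a threshold of 0.05. Of 1625 shared regions tested for H3K27me3, 204 passed (12.6%, against 22.2% of all 14125 regions tested). At 24 h 201 were higher than at 0 h (12.4% of the shared regions tested, against 22.1% of all regions tested), and 1 was lower, where the rate over all regions tested was 0.0142%. Of 2938 tested for H2AK119Ub, 868 passed (29.5%, against 32.3% of all 19055). At 24 h 835 were higher than at 0 h (28.4%, against 29.8% of all regions tested) and 6 were lower, where the rate over all was 0.32%. Of 2430 tested for H3K27ac, 294 passed (12.1%, against 9.42% of all 11549). At 24 h 292 were higher than at 0 h (12.0%, against 9.25% of all regions tested), and 285 were higher at 12 h than at 0 h (11.7%, against 8.99%). By limma 0 were lower at 24 h, where the rate over all was 0.026%. At an unadjusted p under 0.05, 617 shared regions passed for H3K27ac in either direction. Of 440 tested for H3K9me3, 159 passed (36.1%, against 28.8% of all 2813), with 156 higher at 24 h (35.5%, against 27.8% of all regions tested). By limma 0 were lower, where the rate over all was 0.0355%, and 175 had an unadjusted p under 0.05 in either direction. The median difference between 24 and 0 h was 33.3 points of window coverage for H3K27me3 in the shared regions, against 64.9 in all regions tested, 46.0 against 55.0 for H2AK119Ub, and 33.3 in both for H3K27ac.

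For H3K27me3, H2AK119Ub and H3K27ac the directions rest on the scale. When each value was scaled by its library's coverage over all autosomes, 443 shared regions were lower and 101 higher for H3K27me3 at 24 h than at 0 h. For H2AK119Ub 831 were lower and 667 higher. For H3K27ac 1 region then passed, lower at 24 h, so no rise of H3K27ac named below passed on that scale. A window cannot be more than fully covered. A window covered fully at every time must therefore fall when divided by the larger autosomal coverage at 24 h. The decreases on that scale do not show a loss of a mark. With the lists reduced to equal length, 26 shared regions had more and 2 less H3K27me3, 122 had more and 82 less H2AK119Ub, and 29 had more and 23 less H3K27ac. H3K9me3 kept its direction, with 102 higher and 1 lower when scaled and 127 higher and 0 lower with lists of equal length. Shared regions that already carried H3K27me3 at 0 h could rise little on the unscaled measure: of the 201 rises 0 were among the 868 tested regions that had it at 0 h. Another 86 were among 355 tested with H2AK119Ub only and 105 among 360 tested with none of the marks. Of the 292 rises of H3K27ac, 256 were among 1080 tested regions with no mark at 0 h, 29 among 167 with H2AK119Ub only and 7 among 61 with H3K27me3. The 1119 regions acetylated at 0 h, all tested, had 0. They too could rise little on the unscaled measure, as their mean at 0 h was at least 50%. Of the 835 rises of H2AK119Ub, 279 were among 604 tested regions acetylated at 0 h, 132 among 862 with H3K27me3 and 423 among 1013 with no mark. The groups were set by coverage at 0 h, which is also the baseline of the contrast, so these splits are a description. Such splits of the calls are not given for the other regions. Without replicate 3 at 0 h, 352 shared regions passed for H3K27me3, of which 343 were higher, and without replicate 2 at 0 h or replicate 4 at 24 h 123 and 124 passed. With the replicate number as a block 108 passed for H3K27me3 and 390 for H2AK119Ub.

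The largest rises of H3K27me3 were complete. At the start of Pcgf2, which encodes a subunit of Polycomb repressive complex 1 (chr11:97700101-97701593), H3K27me3 covered 0% of the window in all 3 libraries at 0 h and all 3 at 12 h and 100% in all 4 at 24 h (adjusted p = 6.97e-14, limma). The same values were found at Sarm1, which encodes an NAD-cleaving enzyme of axons, at Ctsl, a lysosomal protease, at Cdk20, a kinase, and beside Id2, an inhibitor of basic helix-loop-helix factors. At Cdk20 H2AK119Ub came first, with 0% in all 4 libraries at 0 h and 100% in all 3 at 12 h and all 5 at 24 h (adjusted p = 1.13e-16, limma). In such regions the libraries of a time did not differ at all, so the p-value rests on the spread borrowed from other regions. Among the regions with most libraries, Gata3 had 12.6, 100 and 100% H3K27me3 at 0 h and 100% in all later libraries, and Hoxa13 had 0, 68.4 and 100% at 0 h, 87.6, 42.3 and 100% at 12 h and 100% in all 4 at 24 h. For both the libraries at 0 h disagree, and the change did not pass (adjusted p = 0.415 for Gata3 and 0.370 for Hoxa13, limma).

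Of the 6 response genes with a shared region at the start, H2AK119Ub rose at 4, namely Nfkb2, Irak4, Tnfaip3 and Egr2, as it did at 424 of all 2481 genes with one. Junb, with mean H2AK119Ub of 0, 0 and 60.0% at 0, 12 and 24 h, did not pass (adjusted p = 0.114, limma), and Gadd45b was at 100% in all 4 libraries at 0 h. At Nfkb2 (chr19:46303687-46305751) H2AK119Ub covered 0% in all 4 libraries at 0 h, 100, 0 and 100% at 12 h and 100% in all 5 at 24 h (adjusted p = 0.00634, limma), while H3K27ac covered 0, 100 and 100% at 0 h, 94.9 to 100% at 12 h and 100% in all 3 at 24 h. At Irak4, a kinase of the TLR pathway whose start region it shares with Pus7l, H2AK119Ub covered 0% in all 4 libraries at 0 h, 100% in all 3 at 12 h and 84.8 to 100% at 24 h (adjusted p = 8.03e-10, limma), with H3K27ac at 0% in all 3 at 0 h, 98.0 to 100% at 12 h and 98.0, 81.3 and 0% at 24 h (adjusted p = 0.0929, limma, which did not pass). H2AK119Ub also rose without H3K27me3 at starts of genes of other lineages, with H3K27ac in none of their libraries but 1 of Klf1 at 12 h: at Klf1, a red cell factor, it covered 0% in all 4 libraries at 0 h, 89.9 to 100% at 12 h and 100% in all 5 at 24 h (adjusted p = 8.98e-12, limma), and at Lyz2, a myeloid lysozyme, 0%, then 100% in all 3 and then 25.7 to 100% (adjusted p = 0.00175, limma). At Mcm5, a helicase subunit, it was a pulse, with 0% in all libraries at 0 h, 100% in all 3 at 12 h and 0% in all 5 at 24 h (adjusted p = 1.42e-15, limma). The largest rises at 24 h were complete too: H2AK119Ub covered 0% in all 4 libraries at 0 h and 100% in all later ones at Bok, a member of the Bcl-2 family, at Dusp28, a phosphatase gene, and at chr1:36987940-36988802 outside genes (adjusted p = 1.13e-16 each, limma).

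Of the 6 response genes with a shared region at the start, H3K27ac rose at 1, Gadd45b, as it did at 246 of all 2481 protein-coding genes with one. H3K27ac also rose in regions within 2 kb of Il10 and Icam1. All 3 regions had H2AK119Ub at 0 h. Most regions where H3K27ac rose had no mark then, and that group held more tested regions than the groups with H2AK119Ub only or with H3K27me3. In the region inside Il10, which encodes an anti-inflammatory cytokine (chr1:131020482-131022247), H3K27ac covered 0% in all 3 libraries at 0 h and 100% in all 3 at 12 h and at 24 h (adjusted p = 3.10e-05, limma), and H2AK119Ub covered 100, 100, 0 and 100% at 0 h and 100% in all later libraries. At Gadd45b, a stress response gene, H3K27ac had the same values and H2AK119Ub covered 94.3 to 100% in all 12 libraries. In the region at Icam1, an adhesion molecule, mean H3K27ac was 0, 75.1 and 94.5% at 0, 12 and 24 h (adjusted p = 0.00437, limma) over mean H3K27me3 of 78.0, 83.0 and 100% and full H2AK119Ub. The other largest rises, with 100% in all 6 libraries at 12 and 24 h and 0% in all 3 at 0 h, were in or at Tcea1, a transcription elongation factor, Slco5a1, a transporter family gene, Ica1l, Utp14b, a ribosome biogenesis gene, with Acsl3, Gin1 with Ppip5k2, and outside genes at chr1:43895688-43898188 and chr1:128766291-128768321. No library at 0 h had a peak in the window at any of these. All 3 lists at 0 h were shorter (1448 to 5269 autosomal peaks) than every list at 12 and 24 h (8324 to 15877). The part of list length in these rises was not tested beyond the rescaled values above. At Pcna H3K27ac covered 0, 0 and 94.6% at 0 h, at least 95.6% at 12 h and at least 92.9% at 24 h, and the change did not pass (adjusted p = 0.208, limma).

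**Figure D5:**
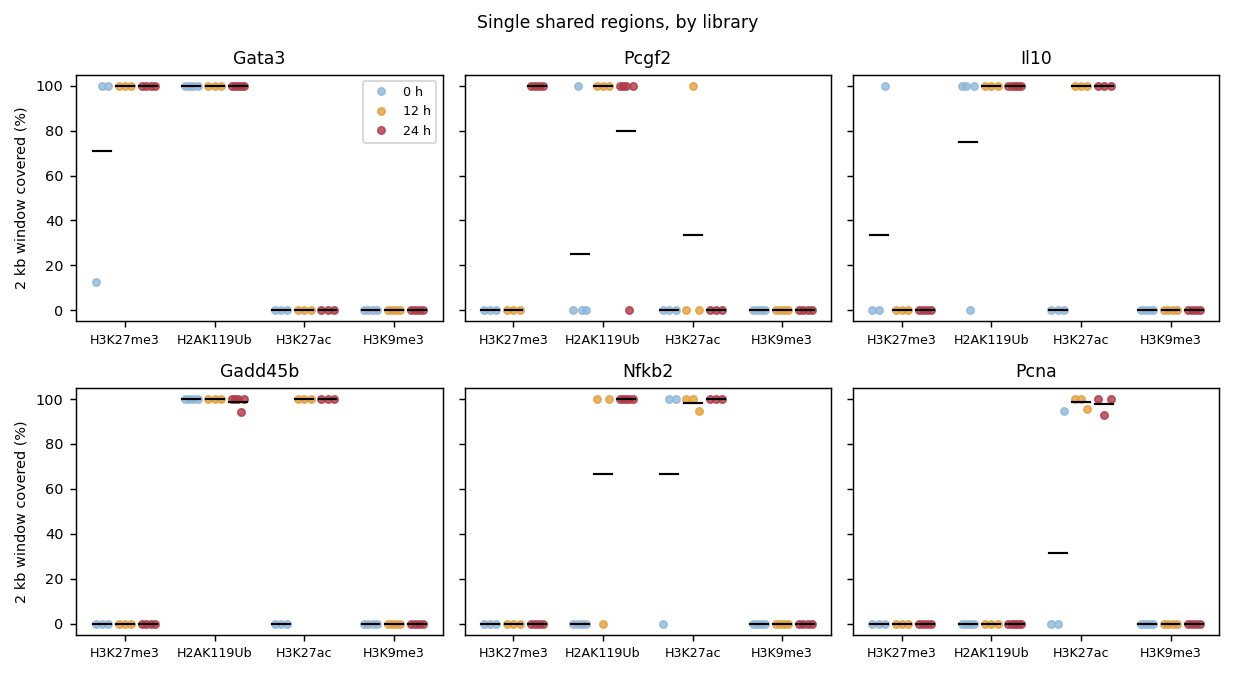
Percent of the 2 kb window covered (y axis) for 4 marks at 6 named shared regions, 1 point per library with a bar at the mean, at 0, 12 and 24 h. H3K27ac at Il10 and Gadd45b is 0% in all libraries at 0 h and 100% in all later ones, and H3K27me3 at Pcgf2 is 100% in the 4 libraries at 24 h only.

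Falls were rare on the full lists. With lists of equal length they were not rare for H2AK119Ub, where 82 shared regions were lower and 122 higher. For H3K27ac 23 were then lower and 29 higher, and for H3K27me3 2 and 26. On the full lists the 6 regions with lower H2AK119Ub at 24 h than at 0 h included 2 neighbours inside Igh, the immunoglobulin heavy chain locus (chr12:113258768-116009954), which holds 22 shared regions. The 2 kb windows of these 2 neighbours overlap. At chr12:114825045-114825981 H2AK119Ub covered 0, 100, 100 and 100% at 0 h, 94.3 to 100% at 12 h and 0 to 8.10% at 24 h (adjusted p = 0.0113, limma), while H3K27me3 covered 0% at 0 and 12 h and 100, 0, 71.4 and 100% at 24 h. Another fall was outside genes at chr6:59831991-59842410, where H3K9me3 covered 100% of the central 2 kb window in all 12 libraries. In that window H2AK119Ub covered 100% in all 4 libraries at 0 h, 0, 69.4 and 0% at 12 h and 0% in all 5 at 24 h (adjusted p = 0.000485, limma). At the start of Wasl, an activator of actin branching, H2AK119Ub covered 100, 89.4, 0 and 100% at 0 h, 31.3 to 100% at 12 h and 0% in all 5 libraries at 24 h (adjusted p = 0.0384, limma), while H3K27ac covered 0% in all 3 at 0 h, 87.6 to 100% at 12 h and 73.2 to 88.4% at 24 h (adjusted p = 0.000144, limma). That fall of H2AK119Ub at Wasl lost its call in 11 of 20 alternatives. The remaining falls were outside genes, both with 0% in all 5 libraries at 24 h. At chr13:3405844-3407334 H2AK119Ub covered 82.9 to 100% at 0 h and 0, 0 and 100% at 12 h (adjusted p = 0.00916, limma). At chr2:181930118-181932200 it covered 0, 0, 93.2 and 100% at 0 h and at least 84.05% at 12 h (adjusted p = 0.0277, limma), and this call was lost in 6 of 22 alternatives. The single fall of H3K27me3 was at a region of 5 bp outside genes, chr1:128530797-128530801, with 100% in all 3 libraries at 0 h, 0% in all 3 at 12 h and 0 to 0.750% at 24 h (adjusted p = 1.14e-13, limma).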

How the data were processed

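The authors deposited 1 SEACR peak list per sample, named for the Cast allele, with the setting in its name: "norm relaxed" for lists of histone marks, and for both Polycomb proteins "stringent" with a cut of 0.01 and no normalization. Per the submitters' processing notes the build was mm10, with Bowtie2 2.3.4.1, Trimmomatic 0.32, deepTools 3.5.1 and Picard. SEACR's version and the allele rule: not given in the sources used here. Peak coordinates, of the unit other, were used as deposited. The deposited total and highest signal of a peak, sums and maxima of coverage, served only to rank peaks within a list. No read counts were available, so no depth or counting interval is given.

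From the lists, the percent of a 2 kb window at each region's centre covered by peaks was computed and fitted with limma 3.58.1 (R 4.3.3; trend and robust options, time as factor, all libraries of a mark in 1 fit). A region was tested when at least 3 libraries of the mark had a peak in its window. Direction between 2 times needed a contrast p under 0.05 as well. Where libraries of a time are identical, limma offsets the zero variance. On simulated data the test recovered a minority of the changes put in, and among few true changes the false share exceeded the threshold. A region that did not pass is therefore not shown to be stable. The error rate in windows whose libraries of a time are identical was not tested. P-values weigh a change against the spread between these libraries, combined with spread borrowed from other regions. Where the libraries of each time are identical, the p-values rest on the borrowed spread.

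Gene names and promoters came from RefSeq tables of GRCm38.p6, for protein-coding and lncRNA genes. Regions were named by most Suz12 and Ring1B libraries, by the largest rise or fall between 24 and 0 h among those past the threshold (8 a direction, ties by p, then position), by list with up to 4 examples, and just inside and outside the limit. List genes outside those examples, among them Icam1, Egr2, Wnt10b, Plk1, Rrm2, Pax5 and Prdm1, were named after their values were seen. The regions and gene lists were chosen with earlier results of these data known. Plots and tables were made with matplotlib 3.10.9, numpy 2.4.6, pandas 2.3.3 and Python 3.11.15.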

Additional observations from a re-analysis of the deposited data

Results flagged for a closer look

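Within groups of 4 or 5 libraries, 67 sets of values were searched for a library set apart from its group, by its gap over the group's range. Of these sets 11 had one. Chance gives about 1 in 20 sets for normally spread values, a rate that does not hold for these. Where the other libraries are equal, any difference is flagged, however small, as at Sarm1 below. All but 1 of the 11 concern H2AK119Ub, and the values are percent of the 2 kb window. At 0 h the library apart had 0 at chr12:114825045-114825981 (replicate 1), 54.5 at chr12:114826693-114826847 (replicate 1), 82.9 at chr13:3405844-3407334 (replicate 4) and 0 at Wasl (replicate 3). At 24 h it had 8.10 and 35.5 at those 2 sites of chromosome 12 (replicate 1), 84.8 at Irak4 (replicate 5), 74.1 at Lhx5 (replicate 4), 25.7 at Lyz2 (replicate 3) and 97.6 at Sarm1 (replicate 4). The windows of the 2 sites of chromosome 12 overlap, so their values are not independent. For H3K27me3 at 24 h it had 0.750 at chr1:128530797-128530801 (replicate 4), where the others were at 0.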

How the results depend on the processing

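Numbers of shared regions passing moved with the treatment of list length. With lists cut to equal length, 29 passed for H3K27me3, 218 for H2AK119Ub and 54 for H3K27ac, and divided by autosomal coverage 550, 1540 and 1. Testing every region with a peak in 1 library gave 132 for H3K27me3; regions with no peak could not be fitted. Limits of 4 and of 6 of 9 gave 1368 and 549 for H2AK119Ub. Same-numbered libraries did not deviate together (median correlation 0.029, -0.013, 0.018 and -0.017 for H3K27me3, H2AK119Ub, H3K27ac and H3K9me3), and with a replicate block 108 passed for H3K27me3, 390 for H2AK119Ub, 289 for H3K27ac and 148 for H3K9me3. Leaving out 1 library gave 123 to 352, 688 to 1136, 289 to 419 and 100 to 160; the H3K9me3 lows were without replicate 1 (100) and 4 (103) at 0 h, and the H3K27me3 lows without replicate 2 at 0 h (123) and 4 at 24 h (124).

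The ratio to the autosomes at 24 h was 6.69 for H3K27me3, 18.2 for H2AK119Ub and 1.83 for H3K9me3 with the stronger peaks, 13.7, 32.5 and 11.3 with equal lists, 3.5 (H3K27me3) and 0.894 (H3K9me3) over the 2 kb window, and 1.03 and 1.23 for H3K9me3 with limits of 4 and 6 of 9. Leaving out 1 library gave 4.56 to 5.07 for H3K27me3, 11.2 to 13.8 for H2AK119Ub, 10.1 to 14.9 for H3K27ac and 1.13 to 1.18 for H3K9me3.

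Class sizes at 24 h were tried under settings chosen after seeing the data. Regions with H3K27me3 and H3K27ac numbered 478 and 72 with a mark present from 25 and 75% of the window, 141 in a 5 kb window, 80 with the stronger peaks and 14 with equal lists. Acetylated regions with H2AK119Ub numbered 516 from 75%, 414 with the stronger peaks and 31 with equal lists, and those without it 531 with equal lists. H2AK119Ub alone numbered 104, 372 and 393 from 25%, from 75% and with the stronger peaks. None of the marks was at 191, 888, 688, 808 and 2433 regions from 25%, from 75%, in 5 kb, with the stronger peaks and with equal lists. Leaving out 1 library at 24 h gave 1301 to 1361, 197 to 267, 889 to 1131, 958 to 1211, 183 to 298, 376 to 384 and 365 to 525 regions in the order of the classes in the plot of marks at 24 h. Of 46 calls at named regions 17 passed in all alternatives run and none changed direction; Wasl (11 of 20 alternatives lost), Rps18 (15 of 22) and chr2:181930118-181932200 (6 of 22) lost the H2AK119Ub call most often. Unknown depth and the absence of a control list here limit every absolute level.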
